A study of Saccharomyces cerevisiae with 18 samples.

Results

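The comparison described here is the strain-by-ethanol interaction between 2 ethanol-tolerant mutants of budding yeast, CM1 and SM1: for every gene, the ethanol response of CM1 (6.5% ethanol minus 0%) minus the ethanol response of SM1. It asks which transcripts reacted to ethanol differently in one mutant than in the other, and a gene that reacted equally in both has a value of 0 even if its level differed between the strains throughout. The 12 arrays of both mutants were used of 18 in all, and the 5650 genes with an annotated probe were all included. The 4 groups were SM1 with 0% ethanol, SM1 with 6.5% (v/v) ethanol, CM1 with 0% and CM1 with 6.5%, each with 3 separate cultures started from unstressed late exponential cells. Both mutants derive from W303-1A, a haploid laboratory strain. Its 6 arrays entered the fit only for the estimates of the spread and of the dye effect. The labels do not name the mutations, so the mutants are known here only by their names, and no time in ethanol is named in the labels.

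Ethanol at a high level loosens yeast membranes, lets protons leak in, unfolds proteins and slows growth. Cells answer with a general stress programme, driven largely by the transcription factors Msn2 and Msn4, that raises chaperones, trehalose metabolism and hydrophilic protectants, while genes for ribosomes and cell division are usually turned down. An interaction between 2 strains picks out where such programmes diverge.

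Each array set 1 culture against a common pool of RNA from 3 W303-1A cultures without ethanol, so every array value is a log2 ratio of the culture to that pool and not an amount of RNA. Replicate 1 of each group was hybridised with the dyes exchanged, and its sign was turned. Culture over pool after this turn is the likely reading rather than a stated one, since the deposited values carry no note on direction, log base or centring. Differences are given as log2 values ± the standard error of the limma fit, with n = 3 arrays a group, and a gene passed where its Benjamini-Hochberg adjusted p over all genes was under 0.05. The number of arrays limits the precision: the median standard error of the response difference was 0.45, and every gene that passed differed by at least 1.43. A probe may also pick up the RNA of a close sequence relative, which applies to the histone, ribosomal protein, TDH, ENO and HXT families below.

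The ethanol responses of the mutants differed for 19 of 5650 genes (0.336%). The CM1 response was higher for 6 genes (0.106%), namely THI6, SHM2, ZRT1, DLD3, YGP1 and DIP5. It was lower for 13 genes (0.230%), namely ANS1, SIP18, ISU2, LEU2, HTB2, CLN2, OAC1, HHF2, ALD5, LEU1, HTA2, RPL22B and IPI1. The lower set included 3 core histone genes and 3 genes of leucine synthesis and transport. Across all genes the median difference was -0.03, with quartiles at -0.42 and 0.38, and 567 genes (10.04%) had an unadjusted p under 0.05, the share against which the list counts below are to be read.

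Which genes passed depended on single arrays. Without 1 of the 12 arrays at a time, between 1 and 34 genes passed. All 19 kept their sign each time, but they were chosen by a fit to these same arrays. A change of sign was thus unlikely from the start, and the kept signs are no test of direction. The count was 6, 1 and 1 without SM1 0% replicate 1, 2 and 3. It was 6, 11 and 2 without CM1 0% replicate 1, 2 and 3. Leaving out CM1 6.5% replicate 1 gave 11 genes, and leaving out replicate 2 gave 34. ISU2 alone passed in all 12 of these fits, followed by RPL22B in 10, LEU1 and SIP18 in 9, and HTB2, HHF2 and LEU2 in 8. ALD5 passed in 7, SHM2 and THI6 in 6, and ANS1, HTA2, CLN2 and DIP5 in 5. ZRT1 and IPI1 passed in 3, OAC1 in 2, and DLD3 and YGP1 in 1. With the fit restricted to the 12 arrays of the mutants, 5 genes passed.

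**Figure D1:**
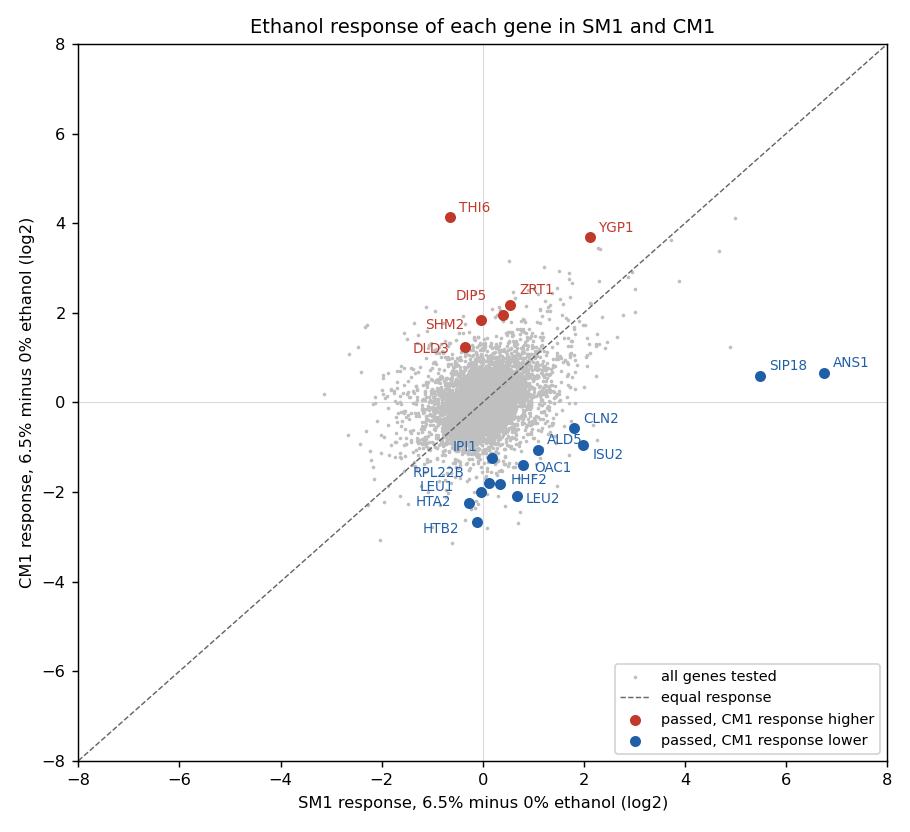
Ethanol response of each of 5650 genes in SM1 (horizontal axis) and CM1 (vertical axis), both as log2 differences between 6.5% and 0% ethanol; coloured points are the 19 genes that passed, and the dashed line marks equal responses. ANS1 and SIP18 lie far to the right near a CM1 response of 0, THI6 lies alone at the top left, and the histone genes and LEU1 lie below the line with SM1 responses near 0.

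ANS1 (YHR126C) had a far higher ethanol response in SM1 than in CM1. On the SM1 arrays its log2 ratio was 0.84, 0.34 and -0.43 without ethanol and 10.34, 5.52 and 5.13 with ethanol. On the CM1 arrays it was 0.37, 0.19 and -0.51 without ethanol and 1.72, -0.41 and 0.74 with ethanol. The SM1 cultures in ethanol stood above all 9 other cultures of the mutants, and the CM1 cultures with and without ethanol overlapped. The response was 6.75 ± 0.77 in SM1 and 0.67 ± 0.77 in CM1, a difference of -6.08 ± 1.10 (limma, adjusted p = 0.0229). With the swapped arrays not turned it was -0.65 and did not pass, as was so for all 19 genes.

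SIP18 (YMR175W), a phospholipid-binding hydrophilin linked to survival of drying, had the same layout. Its log2 ratio in SM1 was 0.18, 0.17 and 0.42 without ethanol and 7.52, 5.13 and 4.57 with ethanol. In CM1 it was 0.12, 0.026 and -0.27 without ethanol and 0.83, 0.18 and 0.66 with ethanol. Every SM1 culture in ethanol was far above every other culture of the mutants. The difference in response was -4.88 ± 0.74 (limma, adjusted p = 0.0153), and the strains differed by -0.30 without ethanol and by -5.18 with it. For both genes the swapped SM1 array was the highest of its group, and the difference was larger from the swapped arrays alone than from the normal arrays alone, at -8.15 and -5.04 for ANS1 and at -6.63 and -4.01 for SIP18. NCA3, chosen after its values were seen because it also had a high SM1 response, reached 7.60, 5.27 and 4.44 in SM1 with ethanol but spread from 0.23 to 4.63 in CM1 with ethanol, and its difference of -3.67 ± 1.12 did not pass (limma, adjusted p = 0.270).

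YGP1 (YNL160W), a secreted cell wall glycoprotein known to respond to nutrient limitation and stress, differed in the other direction. Its log2 ratio in SM1 was -1.69, -1.63 and -1.63 without ethanol and 0.38, 0.62 and 0.39 with ethanol. The CM1 cultures were at -2.35, -2.10 and -2.22 without ethanol and at 1.21, 1.83 and 1.37 with ethanol. The 4 groups did not overlap: CM1 began below SM1 and ended above it. The response was 3.69 ± 0.22 in CM1 and 2.11 ± 0.22 in SM1, a difference of 1.58 ± 0.31 (limma, adjusted p = 0.0418). With the replicate number as a block in place of the dye term it did not pass (adjusted p = 0.0727). SIP18 and YGP1 were the only 2 of 33 Msn2/4 stress genes that passed, in opposite directions. Of the 33, 11 had an unadjusted p under 0.05, against 10.04% of all genes. The median difference of that list was 0.32, and between 0.058 and 0.40 without any 1 array.

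Other stress genes gave no called difference. None of 31 heat shock proteins and chaperones passed, 5 had an unadjusted p under 0.05 (10.04% of all genes), and the median difference was -0.025, close to that of all genes. Rescaling moved that median between -0.31 and 0.07, and under quantile normalization 2.0 of the 31 passed, lower in CM1. Their median response was 0.68 in CM1 and 0.61 in SM1. HSP12, a small membrane-stabilising stress protein, had a response of 4.11 in CM1 and a higher one in SM1, and the difference of -0.89 ± 0.76 did not pass (limma, adjusted p = 0.727). The small heat shock chaperone HSP26 had responses of 2.80 and 2.86, a difference of -0.068 ± 0.65 (adjusted p = 0.975). HSP104, the disaggregase, differed by 1.00 ± 0.41 (adjusted p = 0.443), the cytosolic catalase gene CTT1 by -1.39 ± 0.56 (adjusted p = 0.414) and AHA1, an activator of Hsp90, had the smallest p of the chaperone list without passing. None of 32 oxidative stress genes passed, and the smallest p among them was that of TSA2, a stress-induced peroxiredoxin. Intervals of this width do not show that the mutants responded alike.

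**Figure D2:**
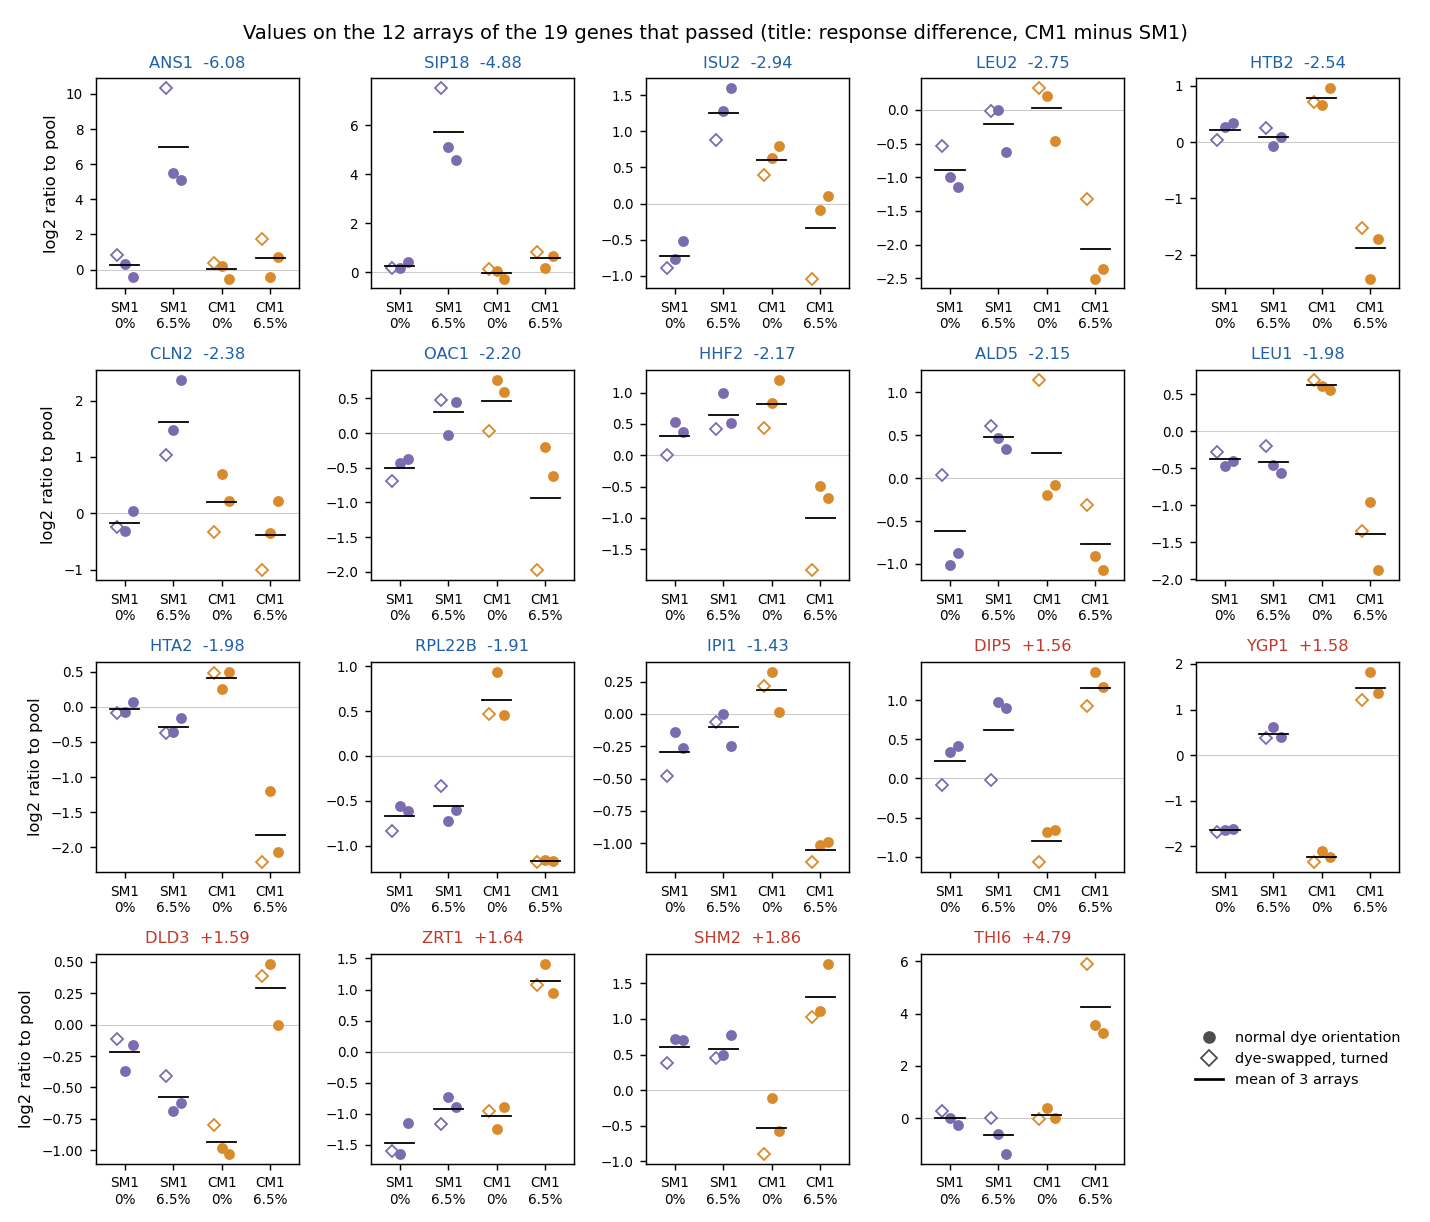
Log2 ratio to the pool of the 19 genes that passed on each of the 12 arrays of the mutants, by group, with the swapped array of each group marked. ANS1, SIP18 and THI6 each show 1 group far from the other 3, whereas the remaining genes differ by smaller steps.

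Leucine synthesis made up the next group. Leucine is made from a valine precursor by isopropylmalate synthase (LEU4 and LEU9), isopropylmalate isomerase (LEU1) and isopropylmalate dehydrogenase (LEU2), and OAC1 is a mitochondrial carrier of oxaloacetate and isopropylmalate. LEU1 (YGL009C) in SM1 stood at -0.28, -0.47 and -0.40 without ethanol and at -0.20, -0.46 and -0.57 with ethanol. In CM1 it stood at 0.69, 0.61 and 0.56 without ethanol and at -1.34, -0.95 and -1.88 with ethanol. The SM1 groups overlapped, while the CM1 groups lay on either side of them. The response was -2.01 ± 0.22 in CM1 and -0.029 ± 0.22 in SM1, a difference of -1.98 ± 0.31 (limma, adjusted p = 0.0153).

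LEU2 (YCL018W) also had a lower response in CM1, although W303 strains carry a nonfunctional leu2 allele. Its log2 ratio in SM1 was -0.53, -0.99 and -1.14 without ethanol and -0.022, 0 and -0.63 with ethanol, and in CM1 it was 0.32, 0.20 and -0.47 without ethanol and -1.33, -2.50 and -2.35 with ethanol. All 3 CM1 cultures in ethanol were below every other culture of the mutants. Unlike LEU1, it had an SM1 response above 0. The response was -2.08 ± 0.32 in CM1 and 0.67 ± 0.32 in SM1, a difference of -2.75 ± 0.45 (limma, adjusted p = 0.0153). The value listed at exactly 0 is 1 of 146 such values on SM1 6.5% replicate 2, and with exact zeros taken as missing, a setting added after they were seen, the difference was -2.50 ± 0.45 (adjusted p = 0.0283).

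OAC1 (YKL120W) was at -0.69, -0.43 and -0.37 in SM1 without ethanol and at 0.48, -0.023 and 0.45 with ethanol. In CM1 it was at 0.036, 0.77 and 0.59 without ethanol and at -1.98, -0.21 and -0.61 with ethanol. The responses had opposite signs, 0.80 ± 0.31 in SM1 and -1.40 ± 0.31 in CM1. The difference of -2.20 ± 0.44 lay just inside the threshold (limma, adjusted p = 0.0483), and with exact zeros taken as missing it lay just outside (adjusted p = 0.0509). With the replicate block it did not pass (adjusted p = 0.0803).

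The branched-chain list held 13 genes, of which these 3 passed, all lower in CM1, against 0.336% of all genes. An unadjusted p under 0.05 was found for 7 of the 13, against 10.04% of all genes. The median difference of the list was -0.73. Named after their values were seen, the other steps of the leucine branch were LEU4 at -0.85 ± 0.35 and LEU9 at -1.18 ± 0.42, and BAT1, the mitochondrial branched-chain aminotransferase, was at -1.34 ± 0.36. None of these passed. BAT2, the cytosolic aminotransferase, had a value of the other sign, 1.82 ± 0.41, and did not pass either (limma, adjusted p = 0.101). LEU3, the transcription factor that regulates leucine genes in response to isopropylmalate, was at 1.32 ± 0.71. The isoleucine and valine genes ILV1, ILV2, ILV3, ILV5 and ILV6 lay between -0.73 and 0.77.

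The CM1 response was also lower for 3 of the 8 core histone genes, HTA2, HTB2 and HHF2. Core histones are made mainly in S phase, and yeast carries each of them at 2 loci. HTB2 (YBL002W), for histone H2B, had log2 ratios of 0.040, 0.26 and 0.34 in SM1 without ethanol and 0.25, -0.064 and 0.084 with ethanol. In CM1 they were 0.72, 0.66 and 0.96 without ethanol and -1.52, -2.42 and -1.72 with ethanol. The CM1 cultures were the highest without ethanol and by far the lowest with it. Responses of -2.67 ± 0.29 in CM1 and -0.12 ± 0.29 in SM1 gave a difference of -2.54 ± 0.41 (limma, adjusted p = 0.0153).

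HTA2 (YBL003C), the H2A gene next to HTB2, was at -0.086, -0.077 and 0.077 in SM1 without ethanol and at -0.37, -0.36 and -0.15 with ethanol. It was at 0.48, 0.25 and 0.50 in CM1 without ethanol and at -2.22, -1.20 and -2.07 with ethanol. Again the 3 CM1 cultures in ethanol lay below all others, and the difference was -1.98 ± 0.34 (limma, adjusted p = 0.0162). HHF2 (YNL030W), for histone H4, was at 0.0055, 0.54 and 0.37 in SM1 without ethanol and at 0.42, 1.00 and 0.52 with ethanol. It was at 0.43, 0.84 and 1.20 in CM1 without ethanol and at -1.84, -0.49 and -0.69 with ethanol, a difference of -2.17 ± 0.35 (limma, adjusted p = 0.0153).

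All 8 core histone genes had a value below 0, as did 2945 of all 5650 genes, and 3 passed, against 0.336% of all genes. The other 5, named after their values were seen, were HHF1 at -1.60 ± 0.36, HHT1 at -1.59 ± 0.40, HHT2 at -1.08 ± 0.28, HTB1 at -0.58 ± 0.33 and HTA1 at -0.32 ± 0.40. The histone pair HTA1 and HTB1 thus had values nearer 0 than HTA2 and HTB2, which was not tested as a difference. Among 33 genes of histones and DNA replication, these 3 passed, against 0.336% of all genes, 15 had an unadjusted p under 0.05, against 10.04% of all genes, and the median difference was -0.37. In bulk RNA, fewer cells in S phase and less histone transcript per cell cannot be told apart.

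CLN2 (YPL256C), a G1 cyclin that drives entry into the cell cycle, differed in a different way. It was at -0.25, -0.32 and 0.038 in SM1 without ethanol and at 1.03, 1.48 and 2.37 with ethanol. CM1 had -0.33, 0.69 and 0.21 without ethanol and -1.02, -0.36 and 0.21 with ethanol. Here SM1 in ethanol stood above all other groups, and the CM1 groups overlapped. The response was 1.80 ± 0.31 in SM1 and -0.58 ± 0.31 in CM1, a difference of -2.38 ± 0.44 (limma, adjusted p = 0.0235). Of 15 cyclins and their regulators it was the only gene that passed. PCL1, another G1 cyclin that was named after its values were seen, was at -1.70 ± 0.43 (adjusted p = 0.141), and CLN1, the closest relative of CLN2, was at -0.37 ± 0.43 (adjusted p = 0.801).

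**Figure D3:**
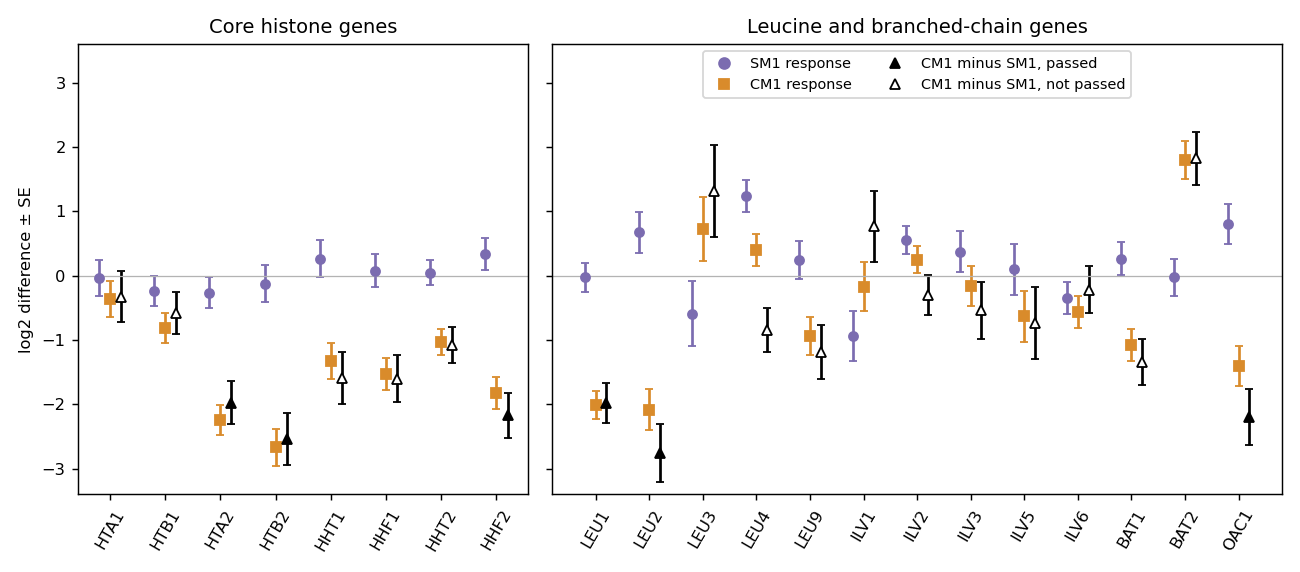
Ethanol responses of SM1 (circles) and CM1 (squares) and their difference, CM1 minus SM1 (triangles), as log2 values with standard errors. Shown are the 8 core histone genes and the 13 branched-chain amino acid genes. Filled triangles passed, open triangles did not, and the horizontal line marks 0. All 8 histone differences lie below 0. Among the branched-chain genes only LEU3, ILV1 and BAT2 have a difference above 0.

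ISU2 (YOR226C), a scaffold on which mitochondria assemble iron-sulfur clusters, had the smallest adjusted p. In SM1 it was at -0.90, -0.76 and -0.52 without ethanol and at 0.88, 1.29 and 1.60 with ethanol. The CM1 ratios were 0.40, 0.63 and 0.79 without ethanol and -1.04, -0.086 and 0.10 with ethanol. The order of the strains turned over: CM1 minus SM1 was 1.34 without ethanol and -1.60 with ethanol, with no overlap at either level. The response was 1.99 ± 0.22 in SM1 and -0.95 ± 0.22 in CM1, a difference of -2.94 ± 0.32 (limma, adjusted p = 0.000816). ISU1, its paralogue, named after its values were seen, had a response of 2.07 in SM1 and 1.05 in CM1, and its difference of -1.02 ± 0.39 did not pass (adjusted p = 0.379).

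ALD5 (YER073W), a mitochondrial aldehyde dehydrogenase, also had responses of opposite sign. It was at 0.031, -1.01 and -0.87 in SM1 without ethanol and at 0.61, 0.47 and 0.34 with ethanol, whereas in CM1 it was at 1.15, -0.20 and -0.083 without ethanol and at -0.32, -0.91 and -1.08 with ethanol. The swapped array was the highest of each group, and the dye term of the fit takes up an offset shared by all groups. The difference was -2.15 ± 0.35 (limma, adjusted p = 0.0153). Of 19 genes of ethanol and acetaldehyde metabolism only ALD5 passed. The values of the acetate-forming dehydrogenases ALD6 and ALD4 had the other sign, 1.73 ± 0.36 (adjusted p = 0.0600) and 1.80 ± 0.40 (adjusted p = 0.0919), and did not pass. The alcohol dehydrogenases ADH1, which makes ethanol, and ADH2, which consumes it, were at 0.78 ± 0.45 (adjusted p = 0.585) and 1.67 ± 0.45 (adjusted p = 0.181).

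Among genes of protein synthesis, RPL22B (YFL034C-A), a protein of the large ribosomal subunit, was at -0.84, -0.56 and -0.62 in SM1 without ethanol and at -0.33, -0.73 and -0.61 with ethanol. In CM1 it was at 0.47, 0.94 and 0.46 without ethanol and at -1.18, -1.16 and -1.17 with ethanol. The SM1 groups overlapped and lay between the CM1 groups. The difference was -1.91 ± 0.28 (limma, adjusted p = 0.0153). Its paralogue RPL22A, named after its values were seen, was at -0.52 ± 0.30 (adjusted p = 0.586).

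IPI1 (YHR085W), part of the Rix1 complex that matures the large ribosomal subunit, was at -0.48, -0.14 and -0.27 in SM1 without ethanol and at -0.061, 0 and -0.25 with ethanol. CM1 cultures stood at 0.22, 0.33 and 0.014 without ethanol and at -1.15, -1.01 and -0.99 with ethanol, so the 3 cultures nearly coincided. The difference was -1.43 ± 0.26 (limma, adjusted p = 0.0229). It also rests on a value listed at exactly 0 on SM1 6.5% replicate 2, and with exact zeros taken as missing it was -1.39 ± 0.28 and did not pass (adjusted p = 0.0600).

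The wider ribosomal lists leaned the same way by small amounts. RPL22B was the only one of 136 cytosolic ribosomal protein genes that passed. An unadjusted p under 0.05 was found for 10, a smaller share than the 10.04% of all genes. A value below 0 was found for 113, with a median of -0.29. Among 77 genes of ribosome biogenesis and RNA polymerase I none passed, and 11 had an unadjusted p under 0.05 (10.04% of all genes). Of the 77, 67 lay below 0, with a median of -0.39. Below 0 lay 2945 of all 5650 genes. Both list medians stayed below 0 when any 1 array was left out and under each rescaling, at -0.56 to -0.14 and -0.41 to -0.31 for biogenesis and at -0.36 to -0.17 and -0.31 to -0.13 for ribosomal proteins. With the swapped arrays not turned the medians were 0.059 and 0.077. The medians were larger in size on the swapped arrays alone, -0.68 and -0.50, than on the normal arrays alone, -0.19 and -0.12, and the part of dye orientation or of culture 1 in this was not tested.

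THI6 (YPL214C) had a higher response in CM1. It encodes a bifunctional enzyme that joins the pyrimidine and thiazole moieties of thiamine, vitamin B1. In SM1 it was at 0.26, 0.00041 and -0.28 without ethanol and at -3.8e-05, -0.60 and -1.38 with ethanol. The CM1 arrays read -0.034, 0.38 and -0.0064 without ethanol and 5.92, 3.55 and 3.27 with ethanol. The 3 CM1 cultures in ethanol stood above all others, and the swapped array was the highest. The response was 4.14 ± 0.57 in CM1 and -0.65 ± 0.57 in SM1, a difference of 4.79 ± 0.81 (limma, adjusted p = 0.0162). With the swapped arrays not turned it was 0.65.

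THI6 alone passed of 16 thiamine genes, 3 had an unadjusted p under 0.05 (10.04% of all genes), and the list median was -0.39. Without any 1 array that median lay between -0.66 and -0.034, and it was 0.35 on the swapped and -0.54 on the normal arrays, so it has no settled direction. Named after their values were seen, the thiamine transporter THI7 was at -1.43 ± 0.44 (limma, adjusted p = 0.275), and the pyrimidine-synthesis genes THI5, THI11, THI12 and THI13, which are near-identical, lay between -1.69 and -0.61. THI4, for the thiazole moiety, was at -0.68 ± 0.52 (adjusted p = 0.704) and THI20, a kinase of the pyrimidine moiety, at 0.34 ± 0.43 (adjusted p = 0.817).

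SHM2 (YLR058C), the cytosolic serine hydroxymethyltransferase that feeds one-carbon units into purines and methionine, was at 0.38, 0.72 and 0.70 in SM1 without ethanol and at 0.46, 0.50 and 0.77 with ethanol. In CM1 it was at -0.90, -0.11 and -0.57 without ethanol and at 1.03, 1.11 and 1.78 with ethanol. The SM1 groups overlapped, and CM1 passed from below them to above them. The difference was 1.86 ± 0.32 (limma, adjusted p = 0.0162). Of 21 purine genes measured it was the only one that passed. ADE3, which interconverts one-carbon folates, was at 1.37 ± 0.31 (adjusted p = 0.101), the IMP dehydrogenase gene IMD4 at -1.23 ± 0.43 (adjusted p = 0.334) and the mitochondrial enzyme SHM1 at -0.93 ± 0.61 (adjusted p = 0.635), all 3 named after their values were seen.

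ZRT1 (YGL255W), the high-affinity zinc transporter of the plasma membrane, was at -1.61, -1.65 and -1.15 in SM1 without ethanol and at -1.17, -0.73 and -0.89 with ethanol. CM1 values lay at -0.95, -1.25 and -0.90 without ethanol and at 1.07, 1.42 and 0.94 with ethanol. The CM1 cultures in ethanol were the only cultures of the mutants above the pool. The difference was 1.64 ± 0.29 (limma, adjusted p = 0.0229). The other 12 zinc genes did not pass and the list median was -0.089. ZAP1, the zinc-sensing activator of ZRT1, was at -0.17 ± 0.35 (adjusted p = 0.900), chosen after its value was seen.

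DIP5 (YPL265W), a permease for glutamate and aspartate, was at -0.078, 0.34 and 0.42 in SM1 without ethanol and at -0.016, 0.98 and 0.90 with ethanol. In CM1 the ratio was -1.07, -0.69 and -0.65 without ethanol and 0.93, 1.36 and 1.16 with ethanol. CM1 was the lowest group without ethanol and overlapped SM1 with ethanol. The difference was 1.56 ± 0.27 (limma, adjusted p = 0.0173), and DIP5 was the only one of 22 amino acid permeases that passed.

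DLD3 (YEL071W), a cytosolic D-lactate dehydrogenase, was at -0.12, -0.37 and -0.16 in SM1 without ethanol and at -0.41, -0.69 and -0.62 with ethanol. The CM1 cultures stood at -0.80, -0.98 and -1.03 without ethanol and at 0.38, 0.49 and -0.00048 with ethanol. The responses had opposite signs, 1.23 ± 0.22 in CM1 and -0.36 ± 0.22 in SM1. The difference was 1.59 ± 0.31 (limma, adjusted p = 0.0411), and with the replicate block it did not pass (adjusted p = 0.0558). DLD1 and DLD2, its relatives in mitochondria, were at -0.62 ± 0.41 (adjusted p = 0.639) and -0.025 ± 0.36 (adjusted p = 0.984), named after their values were seen.

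Several pathways of carbon and energy metabolism leaned one way without any gene passing. All 17 glycolysis genes had a value above 0, from 0.17 for PYK2 to 1.93 for HXK1, against 47.9% of all genes. The median was 0.91, 9 had an unadjusted p under 0.05, against 10.04% of all genes, and none passed. The median response of this list was 1.86 in CM1 and 0.89 in SM1. HXK1, a hexokinase, had log2 ratios in SM1 of 1.19, 1.09 and 1.25 without ethanol and 0.62, 0.65 and 0.68 with ethanol. In CM1 they were 0.63, 1.91 and 1.05 without ethanol and 3.19, 1.89 and 2.71 with ethanol. The CM1 groups of HXK1 overlapped, and the difference of 1.93 ± 0.48 did not pass (limma, adjusted p = 0.141). The list median lay between 0.72 and 1.07 without any 1 array and between 0.89 and 1.09 under rescaling, and it was -0.014 with the swapped arrays not turned.

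Trehalose and glycogen genes had a median of 0.75, or 0.096 with the swapped arrays not turned. Of the 21, 18 were above 0, against 47.9% of all genes. An unadjusted p under 0.05 was found for 7 (10.04% of all genes), and none passed. PGM2, the phosphoglucomutase that supplies both pathways, was at 1.56 ± 0.37 (limma, adjusted p = 0.111), and TPS1, the trehalose-6-phosphate synthase, was at 0.19 ± 0.44 (adjusted p = 0.914). The 15 hexose transporters and sensors had a median of 0.62, which was 1.09 on the swapped arrays, 0.40 on the normal arrays and -0.15 with the swapped arrays not turned. HXT3, a low-affinity glucose transporter, was at 0.83, 0.67 and 0.72 in SM1 without ethanol and at -0.90, -0.47 and -0.71 with ethanol. CM1 values lay at 1.22, 0.84 and 1.61 without ethanol and at 1.06, 1.22 and 1.77 with ethanol. Its SM1 groups did not overlap and its CM1 groups did, with a difference of 1.56 ± 0.44 that did not pass (adjusted p = 0.208). The TCA cycle list had a median of 0.45, or 0.15 with the swapped arrays not turned. Of 16 TCA cycle genes measured 14 were above 0, against 47.9% of all genes, and none passed. An unadjusted p under 0.05 was found for 4 of the 16, against 10.04% of all genes. ACO1, aconitase, had the smallest p among them (limma, adjusted p = 0.198). Glycerol genes had a median of 0.29, or -0.22 with the swapped arrays not turned, and none at an unadjusted p under 0.05, and GPD1, the osmotically induced glycerol-3-phosphate dehydrogenase, was at 0.70 ± 0.36 (adjusted p = 0.514).

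The 8 mitochondrially encoded genes had a median of -1.25, and the 40 nuclear genes of the respiratory chain and ATP synthase a median of 0.24. No gene of either list passed. Of the 8 mitochondrially encoded genes 3 had an unadjusted p under 0.05, against 10.04% of all genes. Only VAR1 among them, for a mitochondrial ribosomal protein, lay above 0. Of the 40 nuclear genes 3 had an unadjusted p under 0.05, and 28 lay above 0. COX2, a cytochrome c oxidase subunit, was at -2.23, -0.46 and 0.070 in SM1 without ethanol and at 1.07, 1.66 and 1.21 with ethanol, and at 0.11, -1.37 and 0.95 in CM1 without ethanol and at -0.11, -0.21 and -1.51 with ethanol. The cultures without ethanol spread widely in both strains, and the difference of -2.69 ± 0.92 did not pass (limma, adjusted p = 0.332). Without any 1 array the median lay between -1.82 and -0.67 for the mitochondrially encoded genes and between 0.037 and 0.33 for the nuclear genes. With the swapped arrays not turned the medians were -0.35 and 0.24.

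**Figure D4:**
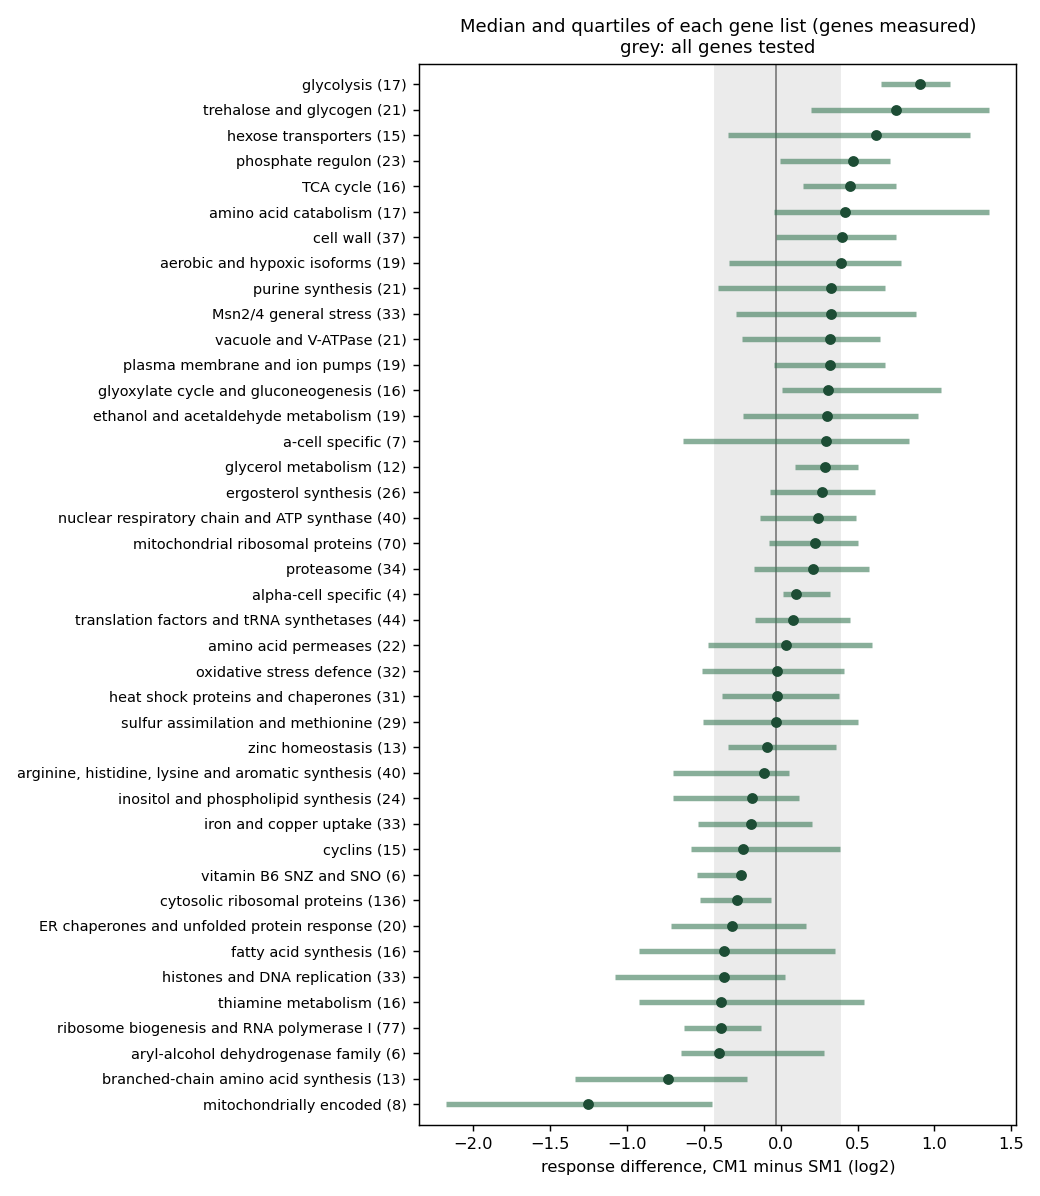
Median response difference (CM1 minus SM1, log2) of each of the 41 gene lists, with the lower and upper quartiles of the members as bars and the median of all genes as a vertical line. Glycolysis lies at 0.91 and trehalose and glycogen at 0.75, while the mitochondrially encoded genes lie at -1.25 and the branched-chain genes at -0.73.

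The lists of cell wall, fatty acid, ion pump and phosphate genes held no passing gene. HSP150, a heat-inducible cell wall protein, had the highest value of 37 cell wall genes. It was at 0.32, -0.019 and -0.075 in SM1 without ethanol and at -0.15, -0.17 and 0.095 with ethanol, and at -0.88, -0.37 and -1.15 in CM1 without ethanol and at 2.60, 0.75 and 1.56 with ethanol. The 3 CM1 cultures in ethanol were above all others, yet the difference of 2.59 ± 0.60 did not pass (limma, adjusted p = 0.102). OLE1, the fatty acid desaturase that makes membrane lipids more fluid, had a response of -2.03 in CM1 and 0.085 in SM1, a difference of -2.12 ± 0.68 (adjusted p = 0.283). PMA1, the plasma membrane proton pump, was at 0.93 ± 0.65 (adjusted p = 0.660). PHO5, the secreted acid phosphatase, was at 1.68 ± 0.37 (adjusted p = 0.0904).

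The genes just outside the threshold were ALD6, AIM17 and MAY24, each at an adjusted p of 0.0600, followed by EGO4, PHO5, STF1, YBR284W, ALD4 and HHF1 at up to 0.0997. Of these 9 only HHF1 had a value below 0. STF1, a stabiliser of the inhibited ATP synthase, was at 1.67 ± 0.37 (limma, adjusted p = 0.0913).

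W303-1A is of mating type a, and genes specific to either mating type were also examined. A difference between ethanol responses does not report mating type, so these genes are no check of the strains. None of 7 a-cell genes and none of 4 alpha-cell genes passed. STE2, the alpha-factor receptor, was at -1.09, -1.30 and -1.08 in SM1 without ethanol and at -3.18, -3.80 and -2.79 with ethanol, and at -0.97, -0.96 and -1.22 in CM1 without ethanol and at -1.44, -1.01 and -1.93 with ethanol. Its SM1 groups did not overlap and its CM1 groups did, and the difference of 1.68 ± 0.50 did not pass (limma, adjusted p = 0.233). The highest alpha-cell value was that of MF(ALPHA)1, at 0.94. Since all values are ratios to a pool of the parent, the presence or absence of a marker cannot be read from them.

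Each group held 1 swapped and 2 normal arrays, so the difference can be computed from either orientation. From the swapped arrays it rests on 1 array a group. All 19 genes had the same sign in both, as did 3086 of all 5650 genes (54.6%), although the 19 were chosen by a fit to these arrays. Across genes the estimates correlated with r = 0.085, where genes are not independent replicates. The swapped array of each group is also its culture 1, so orientation and culture cannot be told apart. On chromosomes, HTA2 and HTB2 were the only neighbouring pair among the 19.

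**Figure D5:**
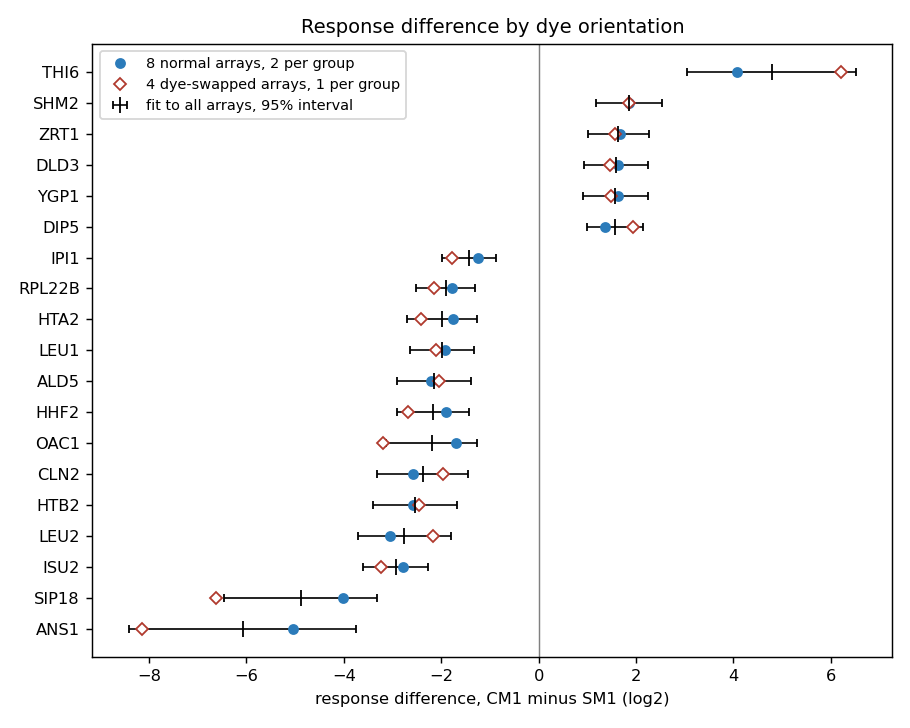
Response difference (CM1 minus SM1, log2) of the 19 genes that passed, with a row for each gene. Markers show the fit with its 95% interval, and the estimates from the 4 swapped arrays and from the 8 normal arrays. For all 19 genes both estimates have the sign of the fit.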

How the data were processed

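Transcripts were measured on 18 two-colour arrays, with AlexaFluor 647 and AlexaFluor 555 as dyes. The values deposited by the authors are of both signs and centred near 0, and they were read as normalized log2 ratios of both channels; the labels give the dyes and which channel holds the pool, while the normalization, log base, centring and direction are not given in the sources used here. Another base would multiply all values by 1 factor. Column medians lay between -0.0041 and 0.030. Intensities were not used here. Of 6368 probes, 5673 had 1 gene symbol, 0 had several and 695 had none. All symbols matched RefSeq by gene ID, and 23 genes with 2 probes were averaged. No gene was filtered. No genome coordinates are given, since the build behind the annotation is not named.

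The 6 swapped arrays were multiplied by -1. Response estimates of the swapped and normal arrays then correlated across genes at 0.33 in SM1, 0.13 in CM1 and 0.51 in W303-1A. The direction thus had the least backing from CM1, and the part of noise on single arrays in this was not tested. Arrays of 1 orientation correlated between 0.21 and 0.83. The turning was the rule of the comparison, and the values without it are given.

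A linear model of 6 group means and a dye term was fitted to all 18 arrays in limma 3.58.1 (R 4.3.3), with lmFit, eBayes and Benjamini-Hochberg adjustment over 5650 genes at 0.05. The fit had 11 residual degrees of freedom. Deviations of same-numbered arrays from the group means correlated between 0.20 and 0.75, which includes the dye orientation shared by replicate 1. After the dye term the correlations lay between -0.52 and 0.41, and those of SM1 0% with CM1 0% were 0.41, 0.11 and 0.23. The labels give no shared batch. Every pair deviated together before the dye term, while after it the correlations were of both signs. A fit with the replicate number as a block is given where it changes a call. In 20 simulated data sets of 5650 genes, 5% of 2-fold and 56.35% of 4-fold response differences were recovered, and 5.03% of calls were unchanged genes. The simulated noise was independent between arrays, with 1 spread a gene taken from the fit itself. The real arrays had estimated weights from 0.216 to 3.42 and correlated residuals, so these rates need not hold for them.

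The comparison, the 41 gene lists and the tests were chosen with earlier results of these data known. Genes named were up to 15 of the largest differences in each direction among those that passed, up to 4 passing members of each list or else the member with the smallest p, and 10 stress, carbon and membrane genes from HSP12 to OLE1. Others are said to be chosen after their values were seen. No sequences were used here.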

Additional observations from a re-analysis of the deposited data

Results flagged for a closer look

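The ethanol response differed between the mutants, by the interaction test itself, for the 19 genes that passed. The log2 difference was -6.08 for ANS1, -4.88 for SIP18, -2.94 for ISU2, -2.75 for LEU2, -2.54 for HTB2, -2.38 for CLN2, -2.20 for OAC1, -2.17 for HHF2, -2.15 for ALD5, -1.98 for LEU1, -1.98 for HTA2, -1.91 for RPL22B and -1.43 for IPI1. It was 1.56 for DIP5, 1.58 for YGP1, 1.59 for DLD3, 1.64 for ZRT1, 1.86 for SHM2 and 4.79 for THI6.

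Among the 695 probes without a gene symbol, which entered none of the gene counts, 2 passed when all 6368 probes were fitted one by one. Their genes were not identified here.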

How the results depend on the processing

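Of the processing settings tried, 6 moved the count of 19 genes (6 higher, 13 lower) by over 1.5 times. With only the 12 arrays of the mutants 5 genes passed (1 higher, 4 lower), and without the dye term 5 passed (0 higher, 5 lower). Quantile normalization gave 31 (8 higher, 23 lower), array weights 75 (45 higher, 30 lower), and the normal arrays alone 9 (4 higher, 5 lower). With the swapped arrays not turned 0 passed in limma (0 higher, 0 lower), with 213 genes at an unadjusted p under 0.05. Without 1 array at a time the counts ranged from 1 to 34, the higher genes from 0 to 16 and the lower genes from 1 to 18. Of the 19 genes, 16 remained under quantile normalization and 19 under array weights. On the normal arrays alone only 4 of the 19 were among the 9 that passed, namely ALD5, ANS1, ISU2 and SIP18. With the replicate number as a block in place of the dye term, 16 genes passed, and DLD3, OAC1 and YGP1 did not; the block changed no other call among the genes named. Exact zeros taken as missing, added after the data were seen, left 17. All 19 genes kept their sign in every setting named here, although they were chosen by a fit to these same arrays.

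Some genes that did not pass under either setting changed sign. With swapped arrays not turned these were HSP150 at -0.045, HXK1 at -0.16, AHA1 at 0.12, AAD3 at -0.32, CTT1 at 0.24, GPD1 at -0.11, PMA1 at -0.14 and TPS1 at -0.38. HSP12 was at 0.62 under quantile normalization. TPS1 was at -0.14 on the normal arrays alone, and without 1 array at a time it ranged from -0.083 to 0.64. HSP26 was at 0.11 with the probe-number trend removed and at 0.55 with array weights, and without 1 array at a time it ranged from -0.59 to 0.67. The cause of these changes was not tested. Signal over background was not used here, so its limit on dim probes is unknown.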

Other observations

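Several gene groups not described above also held no passing gene. The 34 proteasome genes had a median difference of 0.21, and the 20 genes of ER chaperones and the unfolded protein response a median of -0.32, with the ER oxidase ERO1 at the smallest p of that list. The 70 mitochondrial ribosomal proteins had a median of 0.22, and the 26 ergosterol genes a median of 0.27. The 33 genes of iron and copper uptake had a median of -0.19, the 29 sulfur and methionine genes a median of -0.031, and the 6 SNZ and SNO genes of vitamin B6 synthesis a median of -0.26. For the ergosterol list the median response was below 0 in both mutants, -0.30 in CM1 and -0.36 in SM1.

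The array weights that limma estimated were lowest for CM1 6.5% replicate 2 (0.216), W303-1A 6.5% replicate 1 (0.242), SM1 6.5% replicate 1 (0.285) and CM1 6.5% replicate 1 (0.291). Values listed at exactly 0 occurred on 3 of 18 arrays, at 146 probes on SM1 6.5% replicate 2, 22 on W303-1A 0% replicate 1 and 9 on SM1 6.5% replicate 1.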
